A study of Mus musculus with 12 samples.

Results

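The SLC25 genes encode the mitochondrial carriers, nuclear-encoded proteins that move metabolites, nucleotides and cofactors mostly across the inner mitochondrial membrane. The genes followed here were all symbols made of Slc25a and a number with 50 or more counts summed over the 12 deposited libraries. Of 47 such symbols in the files, 34 met that minimum, out of 35976 gene symbols in all. The NAD carrier gene Slc25a51 was among them.

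The study measured RNA in mouse hematopoietic stem cells (HSCs), sorted as lineage-negative, c-Kit-positive and Sca-1-positive cells, with 3′ tag sequencing. The 6 groups held 2 libraries each. They were cytokine-stimulated cells labelled Cd38 KO and labelled WT from animals of 2 months after 24 hours of culture, freshly isolated cells labelled KO and WT from animals of 24 months, and freshly isolated cells labelled KO and WT from animals of 2 months. The labels name neither the cytokines nor the KO allele, and nothing in them ties a library to its own animal, so p-values measure the spread between these libraries, which may be partly technical.

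CD38 is an enzyme that consumes NAD. SLC25A51 carries NAD into the mitochondrial matrix, where it is used in respiration. ADP/ATP carriers (ANT1, encoded by Slc25a4, and ANT2, encoded by Slc25a5) exchange ATP made in the matrix for ADP from the cytosol, and the phosphate carrier SLC25A3 brings in the phosphate used to make it. HSCs are known for relying little on respiration at rest and more on it once they are activated.

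The libraries held 1600155 to 5164720 counts, with 2692245 to 3249721 in stimulated libraries, 3796591 to 5164720 in old fresh libraries and 1600155 to 1963635 in young fresh libraries. Cd38 tags were counted at 3.6 and 2.33 CPM in stimulated KO libraries against 0.996 and 8.61 CPM in stimulated WT libraries, at 13.2 and 19.9 CPM in old KO libraries against 73.4 and 40.9 CPM in old WT libraries, and at 62.5 and 31.6 CPM in young fresh KO libraries against 17.7 and 24.7 CPM in young fresh WT libraries. A 3′ tag can lie outside the deleted part of a gene, so these counts do not check the genotype labels, and KO and WT below are the labels' terms. All 9 HSC markers examined were detected in stimulated, old fresh and young fresh cells, with summed levels of 1673 to 1773, 1612 to 2295 and 2206 to 2448 CPM. The sums include Cd34, at 643.4 ± 217.3, 155.0 ± 64.6 and 401.1 ± 42.8 CPM in these cells (SD, n = 4 each). With stimulation Cd34 had a positive estimate and all the other markers of the list had negative ones. In bulk RNA, fewer cells of a type and less RNA per cell cannot be told apart.

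All 47 Slc25 symbols together took 0.405% to 0.44% of the counts in stimulated libraries. Their share was 0.234% to 0.35% in old fresh libraries and 0.347% to 0.4% in young fresh libraries. Of the counts of the 34 carrier genes, Slc25a3 alone made up 51.6% to 56.3% in stimulated libraries. It made up 41.4% to 50% in old fresh libraries and 45.4% to 58.8% in young fresh libraries. With Slc25a5, Slc25a4 and Slc25a51 it held 66.5% or more of those counts in each of the 12 libraries. Tags are counted once per transcript end, so these levels between genes are not divided by length. At the other end, Slc25a21, a 2-oxoadipate carrier gene, and Slc25a25, an ATP-Mg/phosphate carrier gene, had 64 and 80 counts over all libraries. These lay just inside the minimum, and the coenzyme A carrier gene Slc25a42, with 42 counts, lay just outside it.

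**Figure D1:**
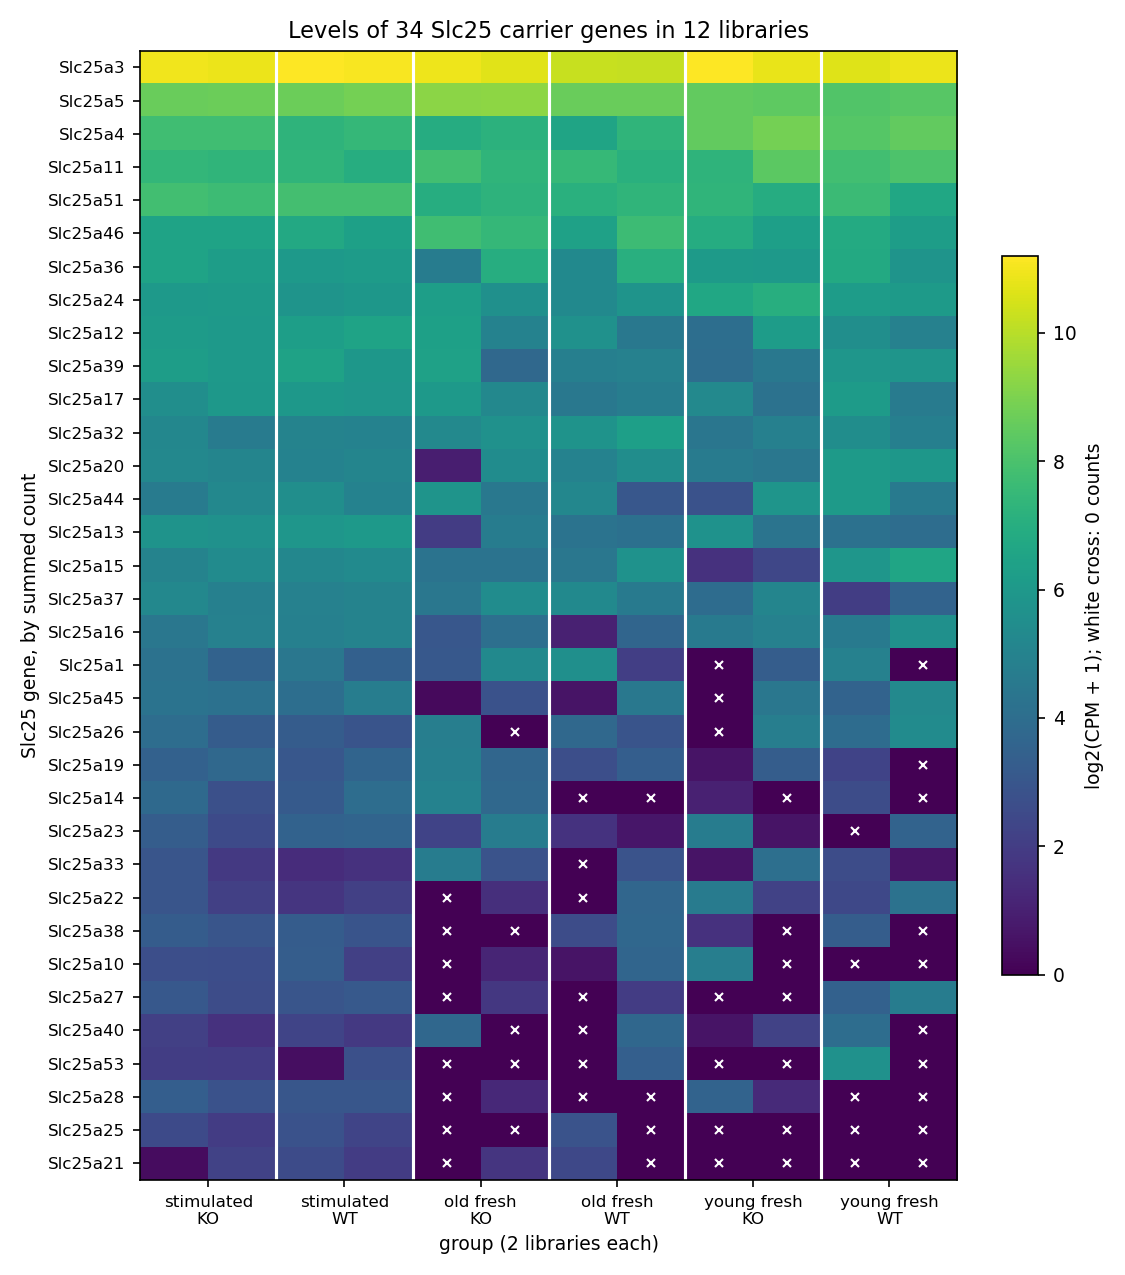
Level of each of the 34 Slc25 genes (down, by summed count) in each of the 12 libraries (across, 2 per group) as log2(CPM + 1) in colour, with a white cross where a library had 0 counts. The 4 stimulated libraries have no crosses, while each of the 8 fresh libraries has 4 to 10.

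Every one of the 34 genes had counts in each of the 4 stimulated libraries, whereas 26 to 30 of them had counts in old fresh libraries and 24 to 29 in young fresh libraries. Brought to an equal depth of 1600155 counts, the expected number detected was 33.5 to 34 in stimulated libraries, 25.1 to 29.7 in old fresh libraries and 23.9 to 29.0 in young fresh libraries. The same held for genes at large. Of the 11759 symbols with 50 or more counts, 95.7% to 96.8% were expected at that depth in stimulated libraries, 77.5% to 82.4% in old fresh libraries and 75.1% to 81.7% in young fresh libraries. The minimum was applied to the sum over these same libraries, so detection is given as a description, with no test.

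**Figure D2:**
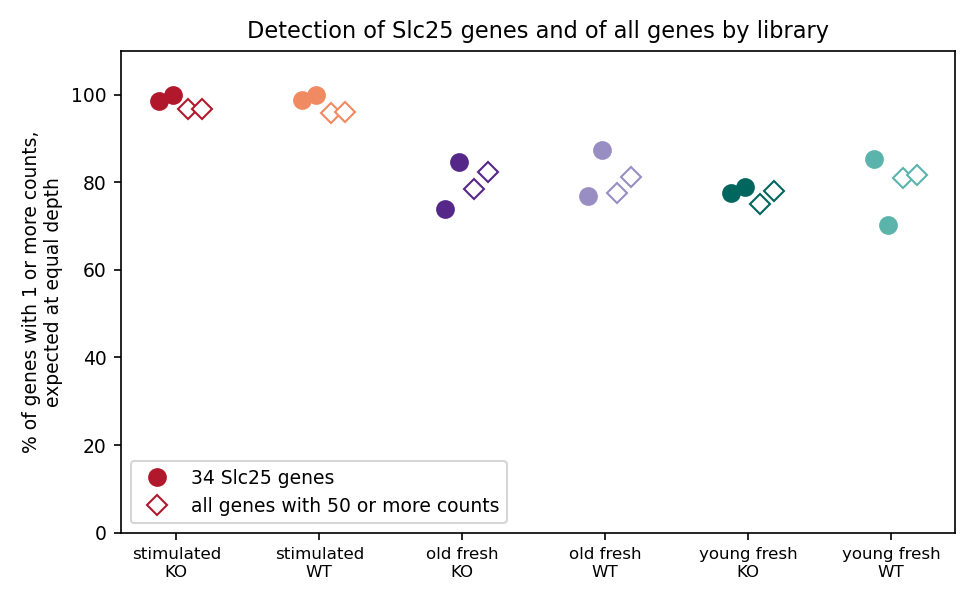
Percent of genes expected with 1 or more counts at equal depth (vertical axis) for the 34 Slc25 genes (filled circles) and for all genes with 50 or more counts (open diamonds), 1 pair of marks per library, by group. Stimulated libraries reach 98.5% to 100% for the family, old fresh libraries 73.8% to 87.4% and young fresh libraries 70.3% to 85.3%, and all genes follow the same split.

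Replicates of fresh cells also differed more. On the log2(CPM + 1) scale, the median absolute difference between the 2 libraries of a group over the 34 genes was 0.338 in stimulated KO and 0.209 in stimulated WT cells, against 1.18 and 1.06 in old KO and old WT cells and 1.02 and 0.981 in young fresh KO and WT cells. More than a 2-fold difference was seen for 3 and 3 genes in stimulated KO and WT cells, for 21 and 17 in old KO and WT cells, and for 18 and 17 in young fresh KO and WT cells. Genes at large split the same way, since the median difference over the 11759 symbols with 50 or more counts was 0.292 and 0.291 in stimulated KO and WT cells, 0.825 and 0.865 in old KO and WT cells and 0.922 and 0.842 in young fresh KO and WT cells. More than a 2-fold difference was found for 9.3% and 8.4% of them in stimulated KO and WT cells, 44.3% and 45.8% in old KO and WT cells and 47.9% and 45.4% in young fresh KO and WT cells. The S-adenosylmethionine carrier gene Slc25a26, for example, had 26.6 and 0 CPM in the 2 old KO libraries and 0 and 27.0 CPM in the 2 young fresh KO libraries. The tests below are therefore much less precise for genes of low level in fresh cells than in stimulated ones.

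The first comparison set stimulated cells against young fresh cells, over both genotypes. One of the 34 carrier genes passed edgeR's quasi-likelihood test at a Benjamini-Hochberg adjusted p under 0.05, and it was lower in stimulated cells. Over all 11548 genes tested, 2.81% were called, 1.31% higher and 1.51% lower, so 1 gene of 34 is near the background share. The median log2 fold change of the 34 was 0.49, against 0.27 over all genes, and 23 of them had a positive estimate, as had 60.3% of all genes. Slc25a21, Slc25a25 and Slc25a28 are among those with positive estimates. They met the minimum summed count only through the stimulated libraries, so their part in these values is in part fixed by that choice.

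The gene that fell was Slc25a4, the gene of ANT1, on chromosome 8 at 46207168-46211062 of GRCm38. It had 218.4 and 217.3 CPM in stimulated KO libraries and 153.4 and 174.8 CPM in stimulated WT libraries, against 367.2 and 461.0 CPM in young fresh KO libraries and 298.5 and 364.5 CPM in young fresh WT libraries. All 4 stimulated libraries lay below all 4 young fresh ones. Slc25a4 averaged 190.9 ± 32.3 CPM in stimulated cells and 372.8 ± 66.8 CPM in young fresh cells (SD, n = 4 each), on 462 to 789 counts and 473 to 889 counts per library. The log2 fold change was -0.97 ± 0.22 (SE, adjusted p = 0.0272, edgeR). The call was lost without stimulated WT replicate 1 or 2 (adjusted p = 0.154 and 0.091), stimulated KO replicate 3 or 4 (0.146 and 0.137), young fresh WT replicate 1 or 2 (0.0506 and 0.0984) or young fresh KO replicate 4 (0.0677), and the log2 fold change without each library was -1.04 to -0.87. Within genotypes the estimates were -0.94 ± 0.31 in KO cells (adjusted p = 0.266) and -1.01 ± 0.32 in WT cells (adjusted p = 0.244), and their difference was 0.06 ± 0.44 (adjusted p = 1.00).

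Slc25a5, the gene of ANT2 on chromosome X at 36795597-36798808, did not pass the test and had estimates of the opposite sign. It had 402.7 and 406.3 CPM in stimulated KO libraries and 407.3 and 458.8 CPM in stimulated WT libraries, against 366.2 and 344.8 CPM in young fresh KO libraries and 285.9 and 311.6 CPM in young fresh WT libraries. The 2 sets of 4 libraries did not overlap, but the log2 fold change of 0.36 ± 0.15 gave an adjusted p of 0.238 in edgeR's test. RefSeq lists a pseudogene of Slc25a5, Slc25a5-ps, so reads that match both copies could have been split or dropped.

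Slc25a51, the NAD carrier gene on chromosome 4 at 45395923-45408917, had 222.8 and 204.3 CPM in stimulated KO libraries and 232.4 and 231.7 CPM in stimulated WT libraries, against 160.5 and 119.8 CPM in young fresh KO libraries and 195.6 and 100.04 CPM in young fresh WT libraries. Each stimulated library lay above each young fresh one, and the 2 young fresh WT libraries were the farthest apart. The log2 fold change was 0.63 ± 0.25 (adjusted p = 0.213, edgeR), so it was not called. The estimates were 0.59 ± 0.36 in KO cells and 0.66 ± 0.36 in WT cells.

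Slc25a3, the phosphate carrier gene on chromosome 10 at 91116574-91124046, had 2008 and 1866 CPM in stimulated KO libraries and 2292 and 2185 CPM in stimulated WT libraries, against 2344 and 1791 CPM in young fresh KO libraries and 1590 and 1876 CPM in young fresh WT libraries. The groups overlapped, and the log2 fold change was 0.14 ± 0.13 (adjusted p = 0.620, edgeR).

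**Figure D3:**
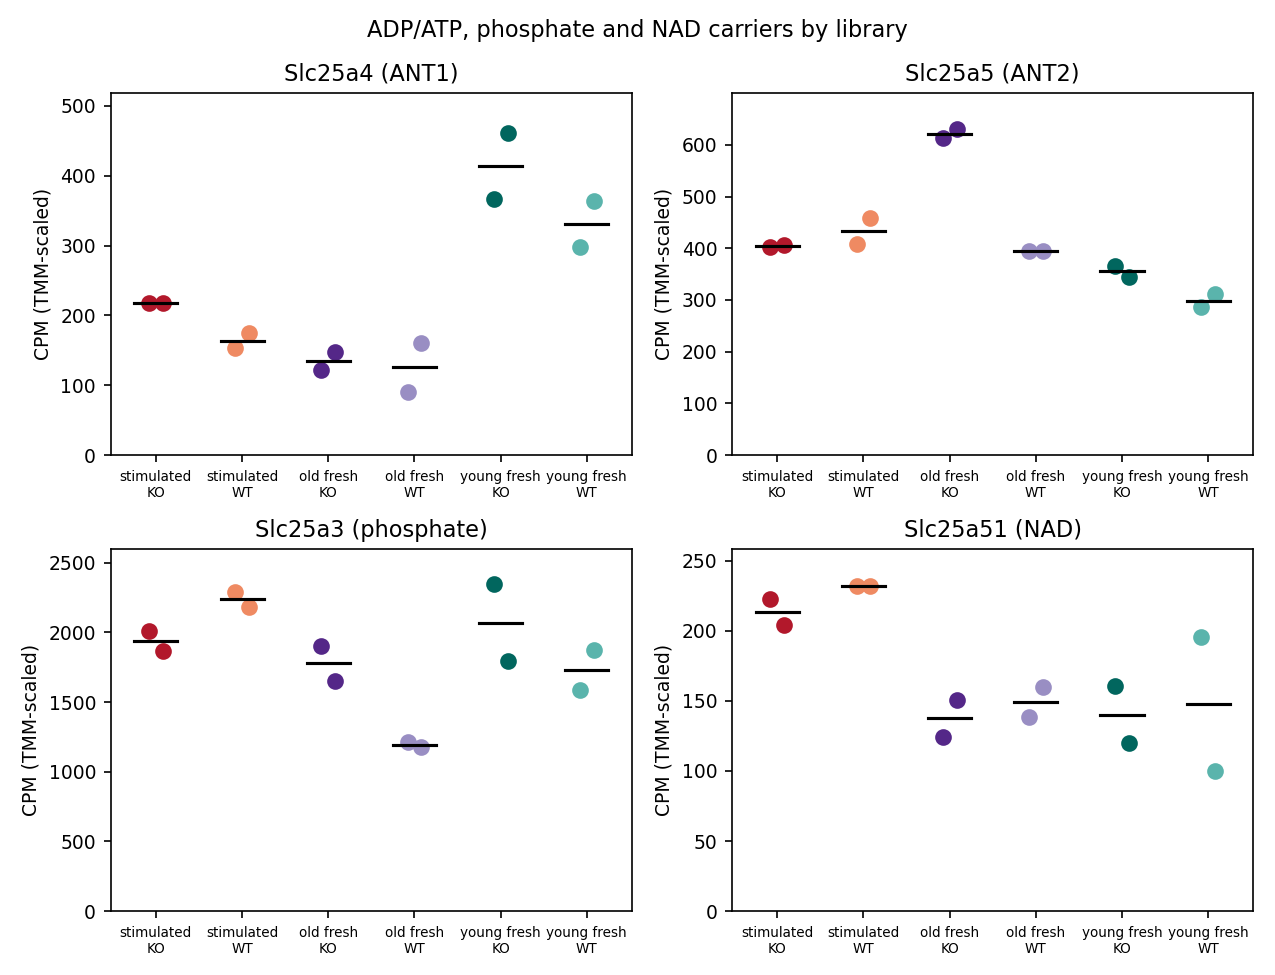
TMM-scaled CPM (vertical axis, from 0) of Slc25a4, Slc25a5, Slc25a3 and Slc25a51 in each library (points) by group, with the mean of the 2 libraries as a bar. Slc25a4 lies highest in young fresh cells, at 298.5 to 461.0 CPM, Slc25a5 highest in old KO cells, at 613.5 and 630.2 CPM, and Slc25a51 highest in stimulated cells, at 204.3 to 232.4 CPM.

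Other genes of the same roles gave these values. Among 4 tricarboxylate, dicarboxylate and 2-oxo acid carrier genes none was called. The 2-oxoglutarate/malate carrier gene Slc25a11 had a log2 fold change of -0.68 ± 0.26 (adjusted p = 0.200), with 125.8 to 170.8 CPM in stimulated libraries and 155.4 to 331.3 CPM in young fresh ones. It overlaps Rnf167 on the other strand, and the strand setting of the counting is not stated. Of 3 calcium-regulated ATP-Mg/phosphate carrier genes none was called, and their summed level was 71.0 to 77.5 CPM in stimulated libraries and 71.3 to 127.6 CPM in young fresh ones. Slc25a25 of that group had 56 of its 80 counts in the 4 stimulated libraries, 24 in old fresh ones and 0 in the 4 young fresh ones. Slc25a21 of the 2-oxo acid group had 36 of its 64 counts in stimulated libraries, 28 in old fresh ones and 0 in young fresh ones. Both met the minimum of 50 counts only through the stimulated libraries, so their difference from young fresh cells is in part fixed by that choice, and it is given with no fold and no test. Genes with 0 counts in single fresh libraries were common.

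None of 8 nucleotide and cofactor carrier genes was called, and 5 had positive and 3 negative estimates. Their summed level was 417.6 to 445.4 CPM in stimulated libraries and 295.5 to 466.3 CPM in young fresh ones. The 5 iron, haem and glutathione carrier genes summed to 108.0 to 134.8 CPM in stimulated libraries and 43.2 to 85.2 CPM in young fresh ones, without overlap, and none was called on its own. The iron carrier gene Slc25a28 of that group had 93 of its 124 counts in stimulated libraries, 7 in old fresh ones and 24 in young fresh ones. It too met the minimum count only through the stimulated libraries, so its place in that sum depends on that choice. Its levels were 6.0 to 9.1 CPM in stimulated libraries and 0 to 10.7 CPM in young fresh ones. In that group the glutathione carrier gene Slc25a39 had 60.6 to 85.6 CPM in stimulated libraries and 15.2 to 58.0 CPM in young fresh ones (log2 fold change 1.13 ± 0.56, adjusted p = 0.313). Mitoferrin 1, the iron importer encoded by Slc25a37, had 28.2 to 36.3 CPM in stimulated libraries and 3.2 to 33.2 CPM in young fresh ones. The 6 amino acid and acylcarnitine carrier genes had 3 positive and 3 negative estimates and none was called. The aspartate/glutamate carrier genes Slc25a12 and Slc25a13 of that group had log2 fold changes of 0.88 ± 0.55 and 1.24 ± 0.72.

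Genes around the family were set beside all 11548 genes tested, of which 2.81% were called, with a median log2 fold change of 0.27. In lists this short, 0 calls are near that share. Of 15 tested genes for the import of carriers into mitochondria (TOM receptors, small TIM chaperones and the TIM22 complex), 0 were called by edgeR, with a median log2 fold change of 0.52. Of 18 other inner membrane transporter genes, such as those of the pyruvate carrier and the calcium uniporter, 0 were called, with a median of 0.56. The sideroflexin gene Sfxn1, a serine transporter gene, had the smallest p of them, at 345.8 to 407.3 CPM in stimulated libraries and 126.5 to 436.6 CPM in young fresh ones (log2 fold change 0.66, adjusted p = 0.135). Of 3 tested family members under other symbols, Ucp2, Mtch1 and Mtch2, 0 were called.

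Markers of other cells and states moved in the same comparison. The granule genes Camp and Ngp of late neutrophils were at 14.4 to 65.9 and 13.3 to 30.1 CPM in stimulated libraries, against 423.7 to 466.3 and 208.3 to 368.5 CPM in young fresh libraries. S100a8 and S100a9 also fell, and the early granule genes Elane, Mpo, Prtn3 and Ctsg rose, so that 4 of 9 tested neutrophil markers were higher and 4 lower. The summed neutrophil markers were 2273 to 3993 CPM in stimulated libraries and 5070 to 9727 CPM in young fresh ones, with Ly6g at 0 in both. Of 12 proliferation markers Birc5 and Top2a rose, and of 9 HSC markers Hlf and Meis1 fell. Monocyte and macrophage markers summed to 252.2 to 331.0 CPM in stimulated libraries and 40.4 to 197.5 CPM in young fresh ones, with Csf1r at 0 in young fresh cells. T and NK cell markers summed to 113.0 to 230.7 CPM in stimulated libraries and 14.4 to 34.5 CPM in young fresh ones, with Cd3e, Cd8a and Cd4 at 0 in both. Most of that sum was Nkg7, which was not called, at 94.0 to 226.4 CPM in stimulated libraries and 13.8 to 34.5 CPM in young fresh ones. Erythroid markers summed to 2135 to 3546 CPM in stimulated libraries and 3834 to 5447 CPM in young fresh ones, and most of that sum was the carbonic anhydrase gene Car2, which fell (log2 fold change -0.98 ± 0.13, adjusted p = 0.000875, edgeR). B cell markers summed to 22.1 to 200.6 CPM in stimulated libraries and 0.631 to 21.8 CPM in young fresh ones, with Cd79a and Ms4a1 at 0 in both. The part of these shifts in the level of Slc25a4 was not tested.

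The second comparison set old fresh cells against young fresh cells, over both genotypes, in the 8 fresh libraries. It shares its 4 young fresh libraries with the comparison by stimulation. One of 31 carrier genes tested was called, and it was lower in old cells, against 2.72% of 10680 genes called in all, 1.76% higher and 0.964% lower, so this share too is near the background. The median log2 fold change of the 31 was -0.05, against 0.05 over all genes.

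That gene was again Slc25a4. It had 122.1 and 147.3 CPM in old KO libraries and 91.0 and 161.1 CPM in old WT libraries, beside the 298.5 to 461.0 CPM of young fresh libraries given above. All 4 old libraries lay below all 4 young ones. The mean was 130.4 ± 30.8 CPM in old cells and 372.8 ± 66.8 CPM in young fresh cells (SD, n = 4 each), and the log2 fold change was -1.51 ± 0.28 (adjusted p = 0.00383, edgeR). It was called without each of the 8 libraries in turn, with log2 fold changes of -1.74 to -1.32 and adjusted p-values up to 0.00493. The estimates were -1.63 ± 0.40 in KO cells (adjusted p = 0.0685) and -1.39 ± 0.40 in WT cells (adjusted p = 0.151), with a difference of -0.24 ± 0.55 (adjusted p = 1.00).

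Slc25a5 had 613.5 and 630.2 CPM in old KO libraries and 394.1 and 394.7 CPM in old WT libraries, against 366.2 and 344.8 CPM in young fresh KO libraries and 285.9 and 311.6 CPM in young fresh WT libraries. Old libraries lay above young ones without overlap, and the KO pair was the higher of the old ones. The difference between genotypes in its change with age was 0.39 ± 0.43 (adjusted p = 0.997, edgeR). The log2 fold change of 0.60 ± 0.22 did not pass edgeR's test over the 8 fresh libraries (adjusted p = 0.191). It passed DESeq2's test on the same libraries (adjusted p = 0.0112) and edgeR's over all 12 libraries (adjusted p = 0.0308). Both are more liberal here. DESeq2 called 917 genes with age where edgeR called 291 over the fresh libraries. The fit over 12 libraries takes its spread in part from stimulated libraries, whose replicates differed less.

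Within each library, Slc25a5 and Slc25a4 counts can be set against each other without any scaling between libraries. The ratio of Slc25a5 to Slc25a4 counts was 1.84 and 1.87 in stimulated KO libraries and 2.66 and 2.62 in stimulated WT libraries. It was 5.02 and 4.28 in old KO libraries and 4.33 and 2.45 in old WT libraries. In young fresh cells it was 0.997 and 0.748 in KO libraries and 0.958 and 0.855 in WT libraries. Young fresh cells were thus the only ones of the 3 states in which Slc25a4 counts were at or above Slc25a5 counts in every library. Slc25a4 made up 27.4% to 35.2% of the counts of both genes in stimulated libraries, 16.6% to 29.0% in old fresh libraries and 50.1% to 57.2% in young fresh libraries. The ratio was chosen after its values were seen and is given with no test.

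**Figure D4:**
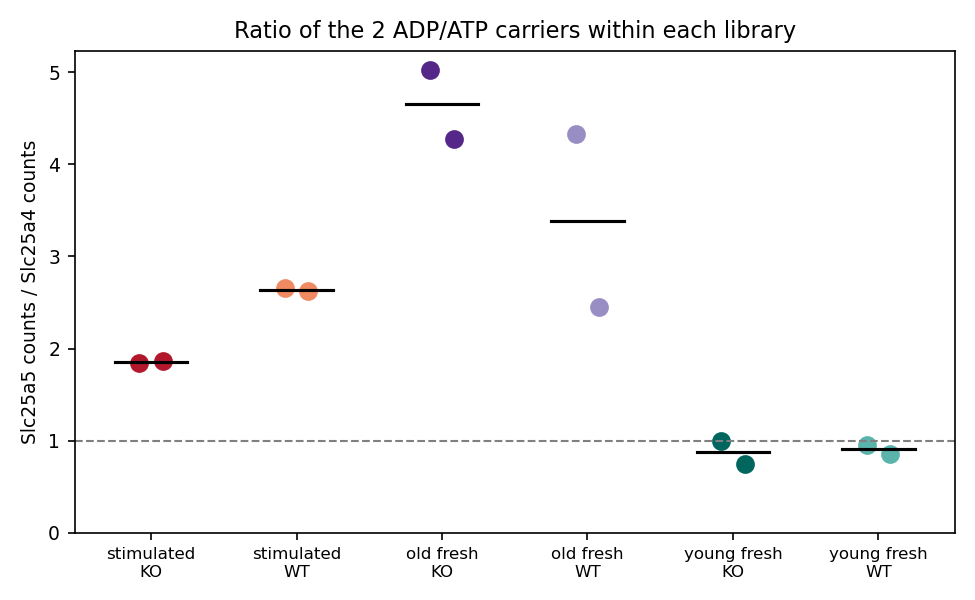
Ratio of Slc25a5 counts to Slc25a4 counts within each library (points, vertical axis from 0) by group, with the mean of the 2 libraries as a bar and a dashed line at equal counts. Young fresh libraries lie at 0.748 to 0.997, stimulated libraries at 1.84 to 2.66 and old fresh libraries at 2.45 to 5.02.

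Slc25a51 did not separate with age. It had 124.5 and 150.8 CPM in old KO libraries and 138.5 and 160.2 CPM in old WT libraries, against 160.5, 119.8, 195.6 and 100.04 CPM in the 4 young fresh libraries. The old libraries lay within the range of the young ones, and the log2 fold change was -0.01 ± 0.34 (adjusted p = 1.00, edgeR). An SE of that size leaves changes of the size seen with stimulation undetectable.

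Slc25a3 had 1905 and 1651 CPM in old KO libraries and 1210 and 1177 CPM in old WT libraries, against 2344, 1791, 1590 and 1876 CPM in young fresh libraries. Its log2 fold change was -0.38 ± 0.16 (adjusted p = 0.300, edgeR). DESeq2, which called more genes at large, called it (adjusted p = 0.0395). Slc25a46, which encodes an outer membrane member of the family tied to mitochondrial fission, had the next smallest p, with 84.4 to 213.5 CPM in old libraries and 73.6 to 122.9 CPM in young fresh ones (log2 fold change 0.78 ± 0.38, adjusted p = 0.398). By role, the 6 amino acid and acylcarnitine carrier genes had 2 positive and 4 negative estimates with age, the 8 nucleotide and cofactor carrier genes 4 and 4, and none of either group was called. Their summed levels were 139.0 to 158.7 and 270.6 to 433.2 CPM in old libraries, against 123.9 to 260.0 and 295.5 to 466.3 CPM in young fresh ones.

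**Figure D5:**
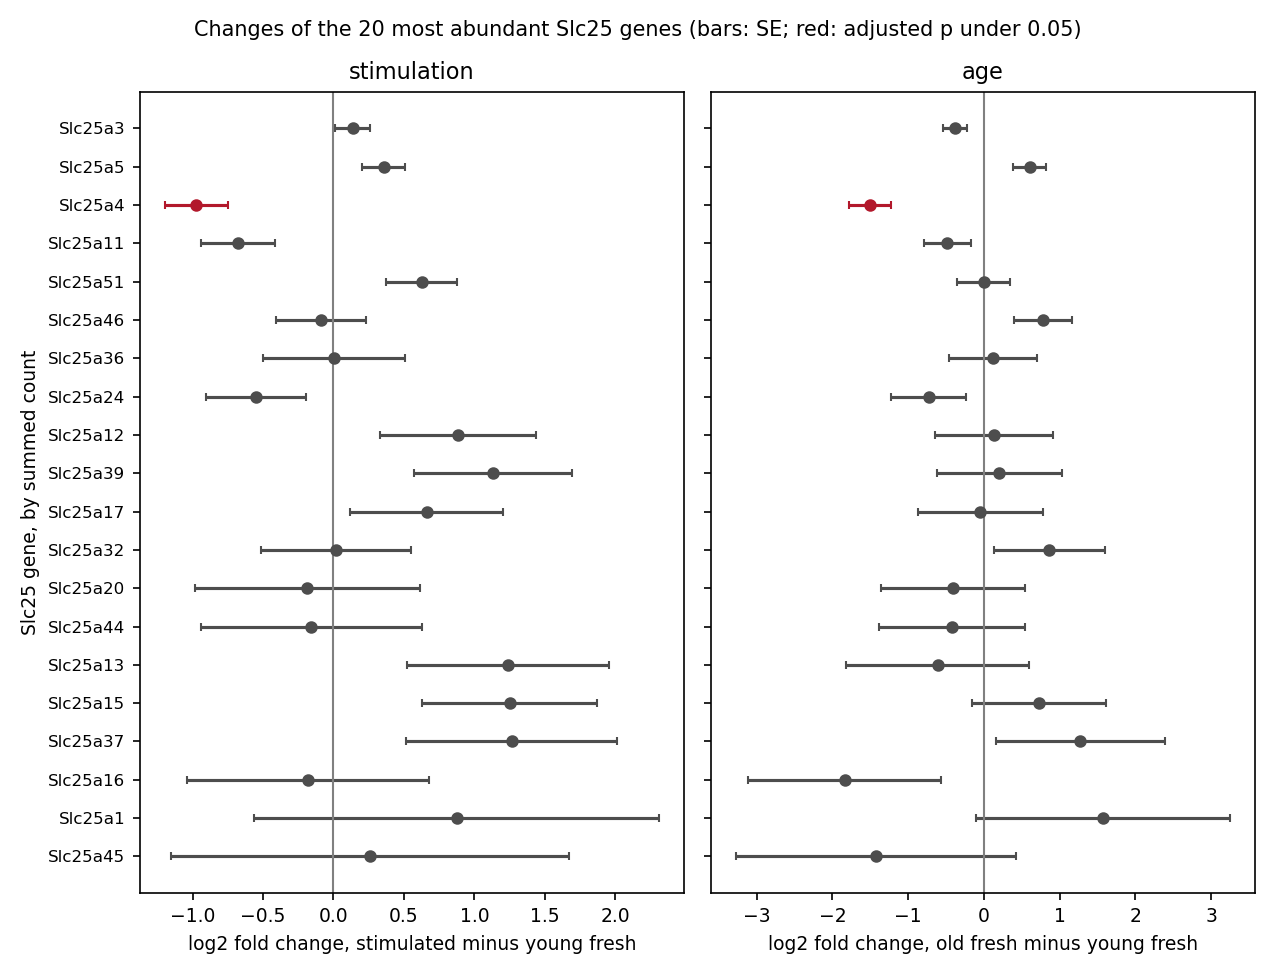
Log2 fold change (horizontal axis, bars are SE) of the 20 Slc25 genes with the most counts, for stimulated against young fresh cells (left) and old fresh against young fresh cells (right), with called genes in red. Slc25a4 is the called gene in both panels, at -0.97 and -1.51, and the SE grows towards the genes of low count at the foot.

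None of the 15 carrier import genes and none of the 17 other inner membrane transporter genes tested was called with age, with medians of 0.16 and 0.46. Over all genes 2.72% were called and the median was 0.05, so 0 calls in lists this short are near the background share. Of 9 neutrophil markers tested with age 4 were lower (Camp, Ngp, S100a8 and S100a9), and the summed level of the 10 listed was 418.1 to 3278 CPM in old libraries and 5070 to 9727 CPM in young fresh ones. Erythroid markers summed to 5626 to 6769 CPM in old libraries and 3834 to 5447 CPM in young fresh ones, with Alas2 and Slc4a1 at 0 in both. Most of that sum was Car2, which was not called, at 5401 ± 346 CPM in old cells and 4100 ± 725 CPM in young fresh cells (SD, n = 4 each). The called erythroid marker was Car1, another carbonic anhydrase gene, higher in old cells (log2 fold change 1.96 ± 0.44, adjusted p = 0.0172, edgeR), while the globin gene Hbb-bs, not called, was at 14.5 ± 20.3 CPM in old cells and 52.6 ± 8.4 CPM in young fresh cells. Megakaryocyte markers summed to 353.0 to 2378 CPM in old libraries and 276.0 to 587.0 CPM in young fresh ones, with all 6 detected in both. Most of that sum was Pf4, which was called higher in old cells (log2 fold change 1.33 ± 0.28, adjusted p = 0.0113, edgeR). Of 2 tested T and NK cell markers Klrb1c was called higher (log2 fold change 8.93 ± 1.62, adjusted p = 0.00343, edgeR). It had 15.5 to 103.3 CPM in old libraries and 0 to 0.575 CPM in young fresh ones. Nkg7 was not called, at 13.8 ± 23.4 CPM in old cells and 20.4 ± 9.6 CPM in young fresh cells. Hlf and Cd34 of the HSC markers fell with age, and of 12 proliferation markers Mki67 rose and Top2a fell. The part of these shifts, and of the greater depth of old libraries, in the level of Slc25a4 was not tested.

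The third set of comparisons was by genotype. In stimulated cells 0 of 32 carrier genes tested were called by edgeR between cells labelled KO and cells labelled WT, 1 had an unadjusted p under 0.05, and DESeq2 and voom also called 0. Over all 10494 genes, 1.23% were called. The smallest p belonged to Slc25a4, with the 218.4 and 217.3 CPM of KO libraries above the 153.4 and 174.8 CPM of WT libraries and a log2 fold change of 0.43 ± 0.15 (adjusted p = 0.227, edgeR). Slc25a3 followed at -0.19 ± 0.10 (adjusted p = 0.527), and then the pyrimidine nucleotide carrier gene Slc25a36 at 0.31 ± 0.19 (adjusted p = 0.626), with 90.0 and 74.8 CPM in KO libraries and 66.1 and 69.2 CPM in WT libraries.

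Markers also moved between the genotypes in stimulated cells. Of 5 tested megakaryocyte markers Pf4 and Vwf were higher in KO cells (log2 fold changes 1.39 ± 0.21 and 3.38 ± 0.65, adjusted p = 0.00476 and 0.0185, edgeR), and the 6 listed summed to 461.4 to 522.6 CPM in KO libraries and 147.0 to 257.3 CPM in WT libraries. Of 9 HSC markers Mecom was higher and Cd34 lower, of 11 erythroid markers Car2 was higher, of 12 proliferation markers Top2a was lower, and of 3 B cell markers Vpreb1 and Ebf1 were lower. Neutrophil markers summed to 2273 to 3372 CPM in KO libraries and 3787 to 3993 CPM in WT libraries, with 0 of 8 called. The part of these shifts in the values of Slc25a4 was not tested.

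The NAD carrier gene showed small differences by genotype in all 3 states. Its log2 fold change between cells labelled KO and WT was -0.10 ± 0.14 in stimulated cells, -0.12 ± 0.48 in old fresh cells and -0.07 ± 0.49 in young fresh cells, with adjusted p-values of 0.864, 1.00 and 1.00 (edgeR). The SE in fresh cells is more than 3 times that in stimulated cells, so only the stimulated estimate is narrow. The difference between genotypes in its response to stimulation was -0.07 ± 0.50.

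In old fresh cells 0 of 31 carrier genes were called between KO and WT by edgeR, 2 had an unadjusted p under 0.05, DESeq2 and voom called 0, and edgeR called 0% of 10680 genes. Slc25a3 had 1905 and 1651 CPM in KO libraries and 1210 and 1177 CPM in WT libraries (log2 fold change 0.57 ± 0.22, adjusted p = 1.00, edgeR). Slc25a5 had 613.5 and 630.2 CPM in KO libraries and 394.1 and 394.7 CPM in WT libraries (log2 fold change 0.65 ± 0.30, adjusted p = 1.00, edgeR). Both pairs were separate and close within themselves. Of the 31 genes, 6 were separate with KO higher, Slc25a3 and Slc25a5 among them, and 3 with KO lower. Separation of 2 libraries from 2 was thus common among these genes. The share of all genes that separate in this way was not counted, so these counts are not read as a trait of the carrier genes. In the same libraries megakaryocyte markers summed to 1442 to 2378 CPM in KO and 353.0 to 632.2 CPM in WT, with Ppbp at 0 in WT, and HSC markers to 1612 to 1689 CPM in KO and 2075 to 2295 CPM in WT. None of the listed markers was called there by edgeR, and the part of these sums in the values of Slc25a3 and Slc25a5 was not tested. Slc25a14, a gene related to the uncoupling proteins, had 191 counts over the KO libraries (30.1 and 12.6 CPM) and 0 over the WT libraries, at least 49.99-fold higher in KO when 3 counts are allowed over the WT libraries (adjusted p = 1.00, edgeR). Such a bound covers counting error only. It was also at 0 in 2 of the 4 young fresh libraries.

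In young fresh cells 0 of 31 carrier genes were called between KO and WT by edgeR, 1 had an unadjusted p under 0.05, voom called 0 and DESeq2 called 1. EdgeR called 0% of 10680 genes, while DESeq2 called 137 genes in all. The carrier gene called by DESeq2 was Slc25a15, which encodes the ornithine/citrulline carrier of the urea cycle. It had 2.0 and 4.1 CPM in young fresh KO libraries and 58.0 and 95.4 CPM in young fresh WT libraries, the largest fitted fold change among carrier genes with counts in all 4 libraries there. Its log2 fold change was -4.60 ± 1.45 (adjusted p = 0.831) in edgeR and had an adjusted p of 0.00269 in DESeq2. The gap was smaller in the other states, with 30.7 and 41.5 CPM in stimulated KO libraries against 35.8 and 39.7 CPM in stimulated WT libraries, and 18.3 and 17.99 CPM in old KO libraries against 20.7 and 51.8 CPM in old WT libraries. Monocyte and macrophage markers summed to 40.4 to 86.9 CPM in young fresh KO libraries and 150.6 to 197.5 CPM in young fresh WT libraries, and HSC markers to 2206 to 2282 CPM in KO and 2396 to 2448 CPM in WT, with none called by edgeR. Their part in the values of Slc25a15 was not tested. The next smallest p-values belonged to Slc25a53, with 0 counts in KO libraries and all 79 WT counts in 1 library, and to Slc25a27, related to the uncoupling proteins, with 0 counts in KO libraries and 10.1 and 24.7 CPM in WT libraries, at least 23.1-fold lower in KO by the same allowance of 3 counts over a group.

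The 2 tests of whether genotype altered a response gave 0 called of 34 carrier genes for stimulation and 0 of 31 for age by edgeR, with 1 gene at an unadjusted p under 0.05 in each, and 0% of all genes called in both. DESeq2 called 1 and 0 of the carrier genes, beside 32 and 104 genes in all, and voom called 0 and 0 carrier genes. For stimulation the smallest p was that of Slc25a15 (interaction 4.53 ± 1.28 on the log2 scale, adjusted p = 0.885 in edgeR and 0.0404 in DESeq2), with the low values in the young fresh KO libraries. Slc25a27 and Slc25a3 followed, with Slc25a3 at -0.49 ± 0.25 (adjusted p = 0.885). For age the smallest p-values were those of Slc25a14, Slc25a15 and Slc25a10, of which Slc25a15 gave an interaction of 3.60 ± 1.81 (adjusted p = 0.907, edgeR). Slc25a14 and Slc25a10 each had a group with 0 counts, so that their fitted values depend on the prior count and are not given.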

How the data were processed

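Libraries were made with a QuantSeq 3′ mRNA FWD kit from RNA purified on RNeasy columns, as the labels' protocols state. The authors deposited raw counts by gene symbol, made with HISAT2 2.2.1, HTSeq 0.9.1 and mm10, per the submitters' processing notes, which also name DESeq2 1.34.0. No source used here states the annotation or the strand setting, and 12 of the 34 genes overlap another gene in GENCODE. Positions came from RefSeq on GRCm38.p6. Counts were compared with edgeR 4.0.16 in R 4.3.3 (TMM, filterByExpr with a minimum count of 10, quasi-likelihood test, Benjamini-Hochberg over all genes of a contrast). Stimulation was fitted over 12 libraries, age and fresh genotypes over 8, and stimulated genotypes over 4. CPM used TMM sizes. SEs of log2 fold changes came from the quasi-likelihood fits and carry the estimated spread between libraries. Floors of 3 counts over a group cover counting error only. Alternatives were DESeq2 1.42.0, voom (limma 3.58.1), RLE scaling, no filter, other library sets, a replicate block and each library left out. Estimates within a genotype and fits of 4 fresh libraries alone were added after the data had been seen. The fits were run on simulated counts with known changes, and the check was on the sign of the changes that edgeR recovered. No rate of recovery or of false calls is given. Same-numbered libraries did not deviate together (correlations of -0.0143 to 0.0122). Members, lists and tests were chosen with earlier results of these data known. The naming rule took Slc25a3, Slc25a4, Slc25a5 and Slc25a51, up to 10 called genes each way, or the 3 smallest p-values, and 2 to 4 called genes per list. Genes of low level were named as examples of their group.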

Additional observations from a re-analysis of the deposited data

How the results depend on the processing

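By stimulation, 1 carrier gene was called under RLE scaling, no filter, DESeq2, the 8 young libraries alone, a replicate block and voom, and 0 to 1 without each library. With age, 1 was called under RLE scaling, no filter, the replicate block and voom and without each library, 2 over all 12 libraries and 3 by DESeq2. By genotype DESeq2 called 1 in young fresh cells and 1 for the interaction with stimulation, and the other alternatives called 0. The replicate block called 0 for both interactions and changed no call. For Slc25a51 the age estimate had the other sign over all 12 libraries (0.00444), with the block (0.0357) and with voom (0.0541), and ranged from -0.209 to 0.281 without each library. Its young fresh genotype estimate was 0.029 with voom and -0.484 to 0.495 without each library, and its interactions ranged from -0.628 to 0.358 (stimulation) and -0.615 to 0.365 (age). Those of Slc25a4 ranged from -0.0736 to 0.257 and -0.617 to 0.209. Counts over all genes moved more, from 325 to 786 (DESeq2), 712 (voom) and 521 (no filter) by stimulation, from 291 to 917 (DESeq2), 577 (12 libraries), 450 (no filter) and 438 (block) with age, and from 129 to 0 (12 libraries), 227 (voom) and 340 (no filter) in stimulated genotypes. DESeq2 called 137 and 105 genes for young and old fresh genotypes and 32 and 104 for the interactions, where edgeR called 0. Without each library the ranges were 160 to 423, 287 to 551, 24 to 296, 3 to 65, 7 to 41, 0 to 7 and 4 to 57. The cause was not tested. At an equal depth 33.5 to 34 of the 34 genes were expected in stimulated libraries and 23.9 to 29.7 in fresh ones.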

Other observations

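Of the 13 Slc25 symbols under the minimum of 50 counts, 9 had 1 or more counts and 4 had 0 in all 12 libraries (Slc25a2, Slc25a18, Slc25a48 and Slc25a54). The coenzyme A carrier gene Slc25a42 had 42 counts and the basic amino acid carrier gene Slc25a29 had 22. Slc25a31, the gene of the germ-cell ADP/ATP carrier ANT4, had 1 count, and Ucp1 and Ucp3 had 0. Mtch2, which encodes an outer membrane member of the family, was at 148.0 to 186.6 CPM in stimulated libraries, 137.5 to 251.2 CPM in old fresh libraries and 114.8 to 229.7 CPM in young fresh libraries, which overlap.

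Slc25a5, Slc25a14 and Slc25a53 lie on chromosome X. One library, young fresh WT replicate 1, had Xist at 0 CPM and 4 Y-linked genes at a sum of 201 CPM, against Xist levels of 198 to 747 CPM in the remaining 11 libraries. All 79 young fresh counts of Slc25a53 were in that library, at 49.8 CPM, while its Slc25a5 level of 285.9 CPM was beside 311.6 CPM in replicate 2.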
